A study of Mus musculus with 4 samples.

Results

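The genes described here encode ligands, receptors and SMAD-pathway proteins of TGF-β signalling: Tgfb1, Tgfb2, Tgfb3, Tgfbr1, Tgfbr2, Smad3, Smad6, Smad7, Ski and Skil. Their accessible regions were chosen by position. Peaks overlapping by at least 1 bp across the 4 ATAC-seq libraries were joined, and a region was taken when the nearest transcription start site (TSS) to its midpoint belonged to one of these genes, or when it overlapped the body of one. This gave 103 of 70744 regions, none of them shared by 2 of the genes. ATAC-seq maps open DNA by where the transposase Tn5 inserts its adaptors, and had been run on large peritoneal macrophages (LPMs), the resident macrophages of the peritoneal cavity. The cells came from 9-week-old C57BL/6 mice, with 40000 sorted cells per library. The control genotype, Rxrab fl/fl, carries loxP-flanked alleles of both Rxra and Rxrb and no Cre. The LysMCre+ Rxrab fl/fl genotype carries the same alleles and expresses Cre from the LysM promoter in myeloid cells, so that LPMs are not the only cells it acts in. There were 2 libraries per genotype: Rxrab fl/fl replicates 1 and 3, called control below, and LysMCre+ Rxrab fl/fl replicates 1 and 2, called Cre+. Whether the libraries were made in 1 batch was not tested. The comparison asks how accessible these genes were with and without the retinoid X receptors. The labels do not state that the libraries came from separate animals, so p-values measure the spread between these libraries, which may in part be technical. By the study's own account, samples that did not group with their genotype had been left out, so that spread may be understated.

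TGF-β ligands bind the receptor Tgfbr2, which recruits and phosphorylates Tgfbr1, and Tgfbr1 in turn phosphorylates Smad3, which enters the nucleus with Smad4 and binds DNA. Smad6 and Smad7 are inhibitory SMADs that are themselves induced by the pathway, and Ski and Skil are co-repressors that bind SMAD complexes on DNA. In LPMs, Tgfb2 is a known target of Gata6, the retinoic acid-dependent transcription factor of these cells.

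The 4 peak lists differed in length. They held 38048 and 16097 peaks in control replicates 1 and 3, against 65421 and 55581 in Cre+ replicates 1 and 2. Fold enrichment is the ratio of the tag pileup at a summit to its local background. Across the 15199 regions that all 4 libraries shared, its median was 14.5, 7.52, 15.1 and 12.0 in the same order, and comparisons were therefore made relative to the median of each library. The short list of control replicate 3 affects both the calls and the raw values of the control genotype. Promoters of the LPM markers Gata6, Icam2, Timd4 and Garnl3 were called in all 4 libraries, while that of Prg4 was called in none. Of 6 promoters of small peritoneal macrophage or monocyte markers, 1 was called in each control library and 5 and 4 were called in the Cre+ libraries. The summed fold enrichment of all regions of that list was 141 and 25.8 in control and 375 and 286 in Cre+, and Ccr2 had no promoter call in any library. The LPM list summed to 361 and 134 against 404 and 374. Promoters of Cd79a, Cd79b, Ms4a1 and Pax5 of B cells, and all 5 T cell promoters tested, were called in no library. The B cell gene Ebf1 and the fibroblast gene Pdgfra had a promoter call in the 3 longer lists. The summed fold enrichment of the 6 mesothelial or fibroblast genes was 21.2 and 5.88 in control and 93.9 and 77.5 in Cre+, and that of the T cell genes was 34.7 and 9.60 against 68.8 and 37.4. Of 5 general macrophage promoters, 3 were called in each control library and 5 in each Cre+ library, and that list summed to 286 and 100 against 409 and 295. All these sums add raw fold enrichment over the called regions. They were not set relative to the library medians, and they rise with the length of the peak list. The part of other cell types in the values below was not tested. At the targeted genes, the Rxra promoter had a fold enrichment of 6.43 and 5.77 in control and 10.4 and 7.27 in Cre+, and the Rxrb promoter had 8.36 and 5.71 against 7.17 and 4.79. Peak calls at these promoters do not check the deletion of the floxed exons.

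Most regions of the TGF-β genes were intronic or intergenic, and a large part of them was missing only from the shortest list. Of the 103 regions, 67 had their midpoint in an intron of any gene, 25 were intergenic, 9 lay in promoter-TSS (from 1 kb before to 200 bp after a TSS) and 2 in a 5′ untranslated exon. Some of these introns belong to other genes, such as the one holding the Tgfb3 region at 105.1 kb. In control replicates 1 and 3, 70 and 34 regions were called, or 68.0 and 33.0%, against 52.0 and 21.9% of all regions. In Cre+ replicates 1 and 2, 97 and 88 were called, or 94.2 and 85.4%, against 90.7 and 77.2% of all regions. Calls in all 4 libraries were made for 34 regions (33.0%, against 21.5% of all regions), and calls in all but control replicate 3 for 31 (30.1%, against 25.5%). Both Cre+ libraries and neither control library held 19 regions (18.4%, against 22.8% of all regions). The opposite pattern was found for 0 regions, against 0.0452% of all regions. A further 16 regions were called in 1 library (15.5%, against 26.9%), and 3 in 1 library of each genotype. Neither share of genotype-restricted calls exceeded that of all regions.

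**Figure D1:**
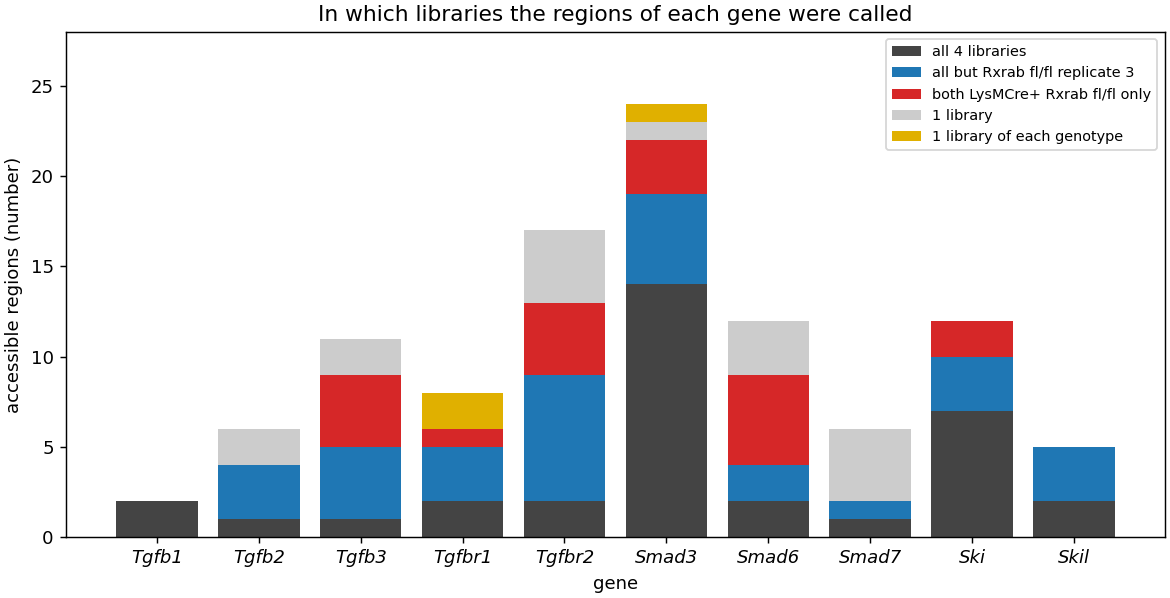
Number of accessible regions of each gene (y axis), stacked by the libraries in which they were called. Smad3 had the most regions, 24, of which 14 were called in all 4 libraries, while Tgfb1 had 2, both called in all 4.

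The genes differed in how their regions were distributed. Smad3 had 24 regions along 111 kb of gene and its upstream flank, Tgfbr2 had 17, Smad6 and Ski had 12 each, and Tgfb3 had 11. Tgfbr1 had 8 regions, Tgfb2 and Smad7 had 6 each, Skil had 5 and Tgfb1 had 2. By role, 4 of 19 ligand regions, 4 of 25 receptor regions, 14 of 24 Smad3 regions and 12 of 35 regions of the inhibitors were called in all 4 libraries. The share over all regions was 21.5%. Of the 12 inhibitor regions, 7 were in Ski. Calls in both Cre+ libraries only were spread over the roles, with 4 regions of ligands, 5 of receptors, 3 of Smad3 and 7 of inhibitors, against 22.8% of all regions. When the 16097 peaks of lowest q value were taken from each library, the TGF-β genes had 36 and 34 called regions in control and 35 and 38 in Cre+. Of the 43 regions left, 28 were called in all 4 libraries (65.1%, against 46.1% of all regions so chosen). Only 4 were then restricted to Cre+ (9.30%, against 7.82%) and 3 to control (6.98%, against 7.22%). The first set lay 49.7 kb upstream of Tgfbr1 and in Tgfbr2, Smad7 and Ski introns, and the second comprised the Tgfb1 and Tgfb2 promoters and a Smad3 intron. At equal list length, the number of calls at these genes differed little between genotypes. Because the cut itself makes the lists equally long, it did not test why the full lists differed.

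**Figure D2:**
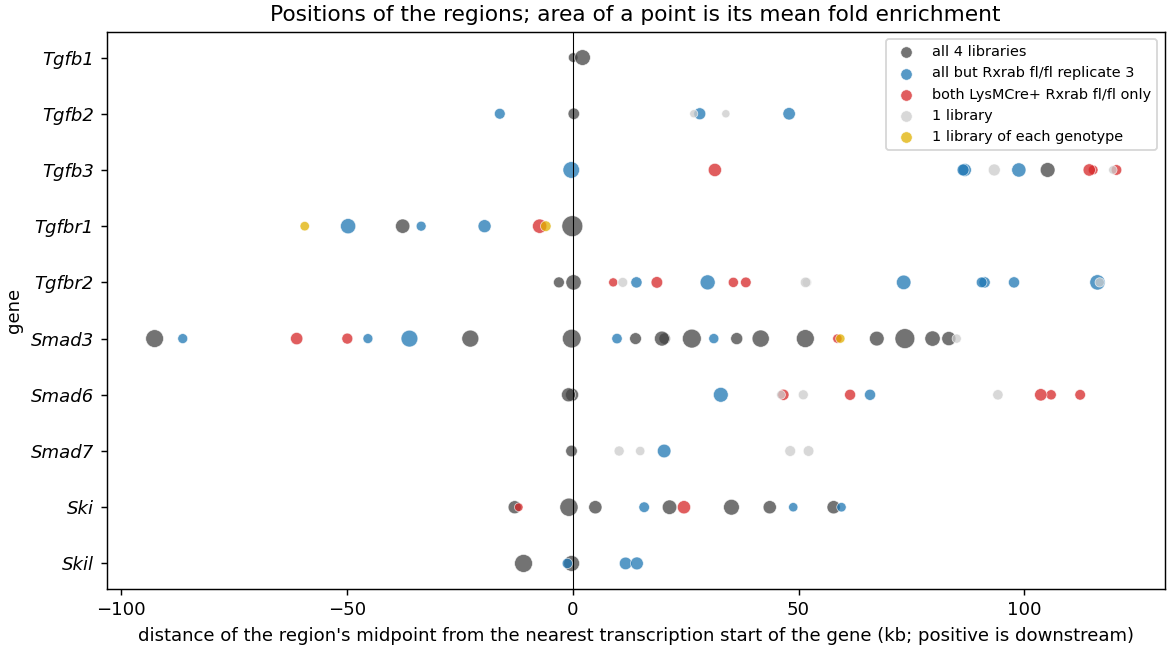
Distance of each region's midpoint from the nearest TSS of its gene in kb (x axis, positive downstream), by gene (y axis), coloured by the libraries that called it, with point area proportional to mean fold enrichment. Regions called in all 4 libraries lay at the TSS of 9 of the 10 genes, Tgfb3 being the exception, and along the Smad3 and Ski genes.

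The promoters of the 10 genes were accessible in both genotypes, and on fold enrichment no region called in all 4 libraries passed the test between genotypes. Of the 34 regions called in all 4 libraries, 0 passed limma (adjusted p under 0.05 with a log2 change past 1), against 0.0855% of all 15199 regions, or 13. At an unadjusted p under 0.05, 5 of the 34 were found (14.7%, against 22.0% of all regions, or 3345): the Tgfb1, Ski and Skil promoters and a Smad3 intronic region 13.9 kb from the TSS, all with a lower value in Cre+, and a region 22.6 kb upstream of Smad3 with a higher one. Relative to the library medians, the values of the genotypes did not overlap at 20 of the 34 regions (58.8%, against 55.2% of all 15199). Log2 fold changes below are Cre+ minus control. Their median was −0.12 over the 34 regions, against −0.087 over all regions tested. The 8 with their midpoint in promoter-TSS had a median of −0.47, against −0.18 over all such regions, and the other 26 had a median of −0.011, against 0.0032. On the summit pileup divided by the median of its library, solved from fold enrichment and p value, 3 regions were higher in Cre+ (background 2.41%) and 1 was higher in control (background 5.08%). All 4 belonged to Ski or Skil.

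**Figure D3:**
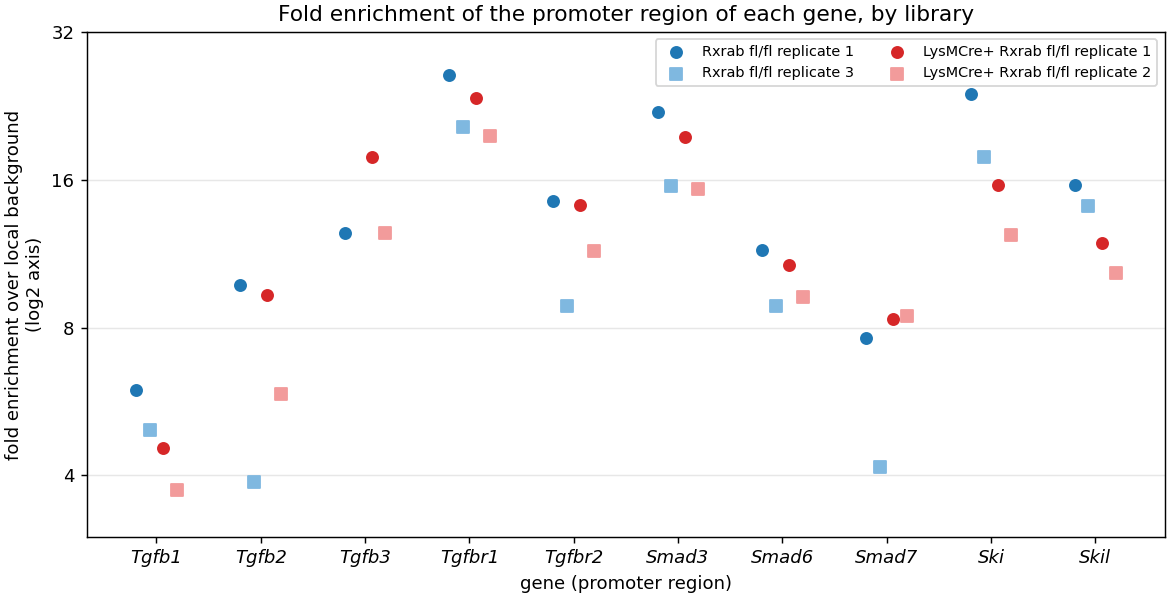
Fold enrichment over the local background (y axis, log2 scale) of the strongest promoter region of each gene (x axis), 1 point per library. In both Cre+ libraries the Tgfb1, Ski and Skil promoters lie below both control libraries, and the Tgfb3 promoter has no point for control replicate 3, in which it was not called.

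Among the ligands, Tgfb1, the form made by most leukocytes, had a weak promoter region and a stronger one in an intron. The Tgfb1 promoter (chr7:25686722-25687542, mm10) had a fold enrichment of 5.98 and 4.94 in control and of 4.55 and 3.74 in Cre+. The genotypes did not overlap, but the difference did not pass the test (log2 fold change −0.77, standard error 0.24, limma adjusted p = 0.108). The intronic region 2.2 kb downstream of the TSS (chr7:25688818-25689584) had 16.5 and 8.64 against 14.3 and 12.4, so that the raw values of the genotypes overlapped, while relative to the library medians they did not (−0.21, standard error 0.21, adjusted p = 0.569).

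Tgfb2, whose expression in LPMs depends on Gata6, had 6 regions, and 5 of them were absent from the list of control replicate 3. That list held only 21.9% of all regions. The Tgfb2 promoter region (chr1:186705154-186706297), which reaches into the first exon, had a fold enrichment of 9.77 and 3.87 in control and of 9.31 and 5.85 in Cre+. The genotypes overlapped (log2 fold change −0.11, standard error 0.23, limma adjusted p = 0.814), and the direction changed with the normalization. The region with the largest mean over the libraries that called it, 47.9 kb into the gene (chr1:186657788-186658353), had 7.60 in control replicate 1 and 8.72 and 7.46 in Cre+. In those 3 libraries the pileup was 39, 25 and 26 there and 75, 53 and 34 at the promoter. A second intronic region at 28.1 kb (chr1:186677660-186678025) had 4.39 against 9.54 and 9.34. Introns at 33.9 and 26.8 kb were called only in control replicate 1, with a fold enrichment of 3.45 and 3.37. Over the regions called in the 3 longer lists, fitted without control replicate 3, the 28.1 kb region differed by 0.88 (standard error 0.26, limma adjusted p = 0.0693), and on the pileup of the same libraries by 0.15 (adjusted p = 0.837). Over the regions called in at least 3 libraries, the difference was 1.21. Control replicate 3 had no value at 28.1 kb, so that fit also rested on control replicate 1 alone. It took the library medians from the regions called in all 4 libraries.

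Tgfb3 was the gene whose promoter was absent from the shortest list. The region (chr12:86078918-86079768) had a fold enrichment of 12.5 in control replicate 1 and of 17.8 and 12.5 in Cre+, a difference of 0.026 on the log2 scale without control replicate 3 (standard error 0.25, limma adjusted p = 0.954). The only Tgfb3 region called in all 4 libraries lay 105.1 kb downstream of the TSS, beyond the end of the gene, with 12.3, 5.82, 14.6 and 14.8. Both Cre+ values were the higher ones (log2 fold change 0.43, standard error 0.22, adjusted p = 0.266). Of the regions called in Cre+ only, the strongest lay at 31.5 kb (chr12:86047383-86047718), with 9.89 and 8.17.

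The promoter regions of the receptor genes did not differ detectably between genotypes. That of Tgfbr1 was strong, and that of Tgfbr2 lay near the library medians. Tgfbr1, the type I receptor kinase, had the promoter of highest fold enrichment among the 10 genes (chr4:47352709-47353619), with 26.1 and 20.5 in control and 23.5 and 19.7 in Cre+. The raw values overlapped, and relative to the library medians they did not (log2 fold change −0.47, standard error 0.24, limma adjusted p = 0.260). An intronic region 7.3 kb upstream of the second annotated Tgfbr1 TSS (chr4:47378774-47379068) was called only in Cre+, with 12.0 and 9.14. The promoter of Tgfbr2, the ligand-binding type II receptor (chr9:116174747-116175561), had 14.5 and 8.87 against 14.3 and 11.4. It did not pass the test either (−0.20, standard error 0.21, adjusted p = 0.601).

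Of the 17 Tgfbr2 regions, 2 distal ones had differences of opposite sign between control replicate 1 and the Cre+ libraries. The intronic region 73.3 kb from the TSS (chr9:116101773-116102410) had a fold enrichment of 6.25 in control replicate 1 and of 16.5 and 12.3 in Cre+. The region 97.7 kb from the TSS, past the end of the gene (chr9:116077475-116077871), had 9.00 against 5.59 and 5.21. Without control replicate 3, in which neither was called, the differences were 0.96 (standard error 0.24, limma adjusted p = 0.0504) and −0.97 (standard error 0.25, adjusted p = 0.053), and neither passed. Over the regions called in at least 3 libraries, the fit also rested on control replicate 1 alone at both places. It took the library medians from the regions called in all 4 libraries, and the differences were 1.30 and −0.63. On the pileup without control replicate 3 they were 1.55 (adjusted p = 0.0031) and −1.13 (adjusted p = 0.0348), and both passed. The pileups were 19 against 77 and 48 for the first and 26 against 12 and 14 for the second, so the second rests on few tags. Because they differ in direction within 1 gene, the 101 bases around their summits are given (mm10, plus strand), with the capitals marking a GATA match on the minus strand.
Tgfbr2 at 73.3 kb, chr9:116102030-116102130: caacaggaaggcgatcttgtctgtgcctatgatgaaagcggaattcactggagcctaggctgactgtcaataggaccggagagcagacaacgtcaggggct
Tgfbr2 at 97.7 kb, chr9:116077645-116077745: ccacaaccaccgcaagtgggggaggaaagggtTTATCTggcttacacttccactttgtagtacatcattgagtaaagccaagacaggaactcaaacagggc

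Smad3, the receptor-activated SMAD of this set, had more regions called in all 4 libraries than any of the other genes, 14, and none of them passed the test. Its promoter (chr9:63757788-63758586) had a fold enrichment of 22.0 and 15.5 in control and of 19.5 and 15.3 in Cre+ (log2 fold change −0.46, standard error 0.22, limma adjusted p = 0.241). The strongest region, in an intron 73.5 kb from the TSS (chr9:63684201-63684709), had 22.3 and 15.6 against 24.8 and 19.1 (−0.14, standard error 0.22, adjusted p = 0.726). Relative to the library medians, the genotypes overlapped at 73.5 kb and not at the promoter. The ends of the range over the 14 Smad3 regions were −0.62 at 13.9 kb (standard error 0.22, adjusted p = 0.141) and 0.56 at 22.6 kb upstream (standard error 0.21, adjusted p = 0.157). The former had 9.53 and 6.30 against 8.05 and 5.28, and the latter 16.5 and 6.93 against 23.7 and 17.5. Of the 3 Smad3 regions called only in Cre+, the strongest lay 61.1 kb upstream (chr9:63818881-63819233), with 10.5 and 5.75. Regions at the 3′ end of Smad3, of which 3 were found, lay nearer to the TSS of Aagab and were counted here because they overlap the Smad3 gene.

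Among the inhibitors, Smad6, which acts mainly on BMP signalling, had a pair of regions at its start. The stronger (chr9:64022636-64023303) had a fold enrichment of 11.5 and 8.86 in control and of 10.7 and 9.26 in Cre+ (log2 fold change −0.39, standard error 0.23, limma adjusted p = 0.342). The other, 0.1 kb upstream of the TSS (chr9:64021891-64022471), had 11.2 and 6.51 against 8.65 and 9.32. Relative to the library medians, the genotypes overlapped at the latter and not at the former. The strongest Smad6 region was intronic, at 32.8 kb (chr9:63988945-63989575), with 9.27 in control replicate 1 and 14.5 and 10.6 in Cre+. Of the 12 Smad6 regions, 5 were called only in Cre+, against 22.8% of all regions. This was the largest number for any of the genes, but Tgfb3 and Tgfbr2 had 4 each. The strongest of the 5 lay at 103.6 kb (chr9:63918301-63918595) with 8.27 and 7.48. The bases of the region 0.1 kb upstream are shown because it alone among the 103 held the SMAD palindrome GTCTAGAC, a choice made after its sequence had been read. The part printed (mm10, plus strand) includes the first bases of the transcript, which runs on the minus strand, and the palindrome spans the TSS, with the palindrome and a C/EBP match in capitals.
Smad6 at the TSS, chr9:64022050-64022133: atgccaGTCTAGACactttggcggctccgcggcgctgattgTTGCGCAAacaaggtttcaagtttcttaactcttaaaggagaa

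Smad7, which blocks the TGF-β receptors, held an intronic region that passed the test on fold enrichment as higher in Cre+, and it was called in 3 libraries only. The region, 20.3 kb from the TSS (chr18:75387366-75387885), had a fold enrichment of 3.70 in control replicate 1, was not called in replicate 3, and had 15.9 and 14.4 in Cre+. Its summit pileup was 10 in control replicate 1 and 55 and 46 in Cre+. Without control replicate 3, it was higher in Cre+ by 1.80 (standard error 0.25, limma adjusted p = 0.0258) and on the pileup by 2.20 (adjusted p = 1.1e-05). That fit compares 1 control library, assumed to vary like the others, with 2. The Smad7 promoter (chr18:75366480-75367774), whose midpoint lies nearest to the TSS of Gm20544, had 7.62 and 4.17 against 8.33 and 8.47, which overlap relative to the library medians, and did not pass the test (0.21, standard error 0.22, adjusted p = 0.591). The other 4 Smad7 regions were called in 1 library each.

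Over all regions called in the 3 longer lists, 1 of 65 regions of the TGF-β genes passed the test on fold enrichment as higher in Cre+, against 2.21% of all 33263 regions, and 1 as higher in control, against 1.21%. They were the Smad7 intronic region and the Ski promoter. Over the regions called in at least 3 libraries, 5 of the 65 passed as higher in Cre+ (7.69%, against 8.14% of all 33385 regions) and 0 as higher in control (against 0.371%). The 5 were the Smad7 region, Tgfb2 at 28.1 kb, Tgfbr2 at 73.3 kb, Tgfb3 at 86.8 kb and Smad6 at 65.8 kb. None of the 5 was called in control replicate 3, so each rests on control replicate 1 alone. On the pileup of the 3 longer lists, where limma used nearly the same variance for all regions, 5 of 64 were higher in Cre+, against 5.26% of all regions, and 3 were higher in control, against 7.94%. The former lay in Smad7, Tgfbr2 and, for 3 of them, Ski, and the latter were the Tgfbr2 region at 97.7 kb and the Ski and Skil promoters.

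Ski, a co-repressor of SMAD complexes, showed different values at its promoter and along its introns. The Ski promoter (chr4:155222939-155223744) had a fold enrichment of 23.9 and 17.8 in control and of 15.6 and 12.4 in Cre+, with no overlap between genotypes. The log2 fold change of −0.94 (standard error 0.23) came closest of the 34 regions to the test (limma adjusted p = 0.0683). On the pileup, which was 507 and 101 against 291 and 150, it was −0.99 (standard error 0.23, adjusted p = 0.0314), short of a log2 fold change past 1. Divided by the median of each library, the pileup was 5.23 and 5.05 against 2.94 and 2.31, so that both Cre+ libraries lay below both controls. Without control replicate 3, the promoter differed on fold enrichment by −0.68 over the regions called in all 4 libraries. Over the regions called in the 3 longer lists it differed by −1.01 on fold enrichment and by −1.41 on the pileup. Both fits hold 1 control library.

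Within the introns of Ski, the pileup was higher in Cre+ at 57.8, 43.6 and 35.2 kb from the TSS, while fold enrichment did not pass the test there. At 57.8 kb (chr4:155164477-155165058), the pileup was 108 and 15 in control and 262 and 209 in Cre+, and fold enrichment was 11.4 and 5.16 against 11.7 and 9.56. Its log2 fold change was 1.67 on the pileup (standard error 0.26, limma adjusted p = 0.0184) and 0.096 on fold enrichment (standard error 0.21, adjusted p = 0.814). At 43.6 kb (chr4:155178231-155179576), the pileup was 86 and 14 against 187 and 139 and differed by 1.34 (standard error 0.23, adjusted p = 0.0196). Fold enrichment there was 12.5 and 5.60 against 11.2 and 8.26, a difference of −0.16 (adjusted p = 0.670). Relative to the library medians, the genotypes did not overlap in pileup at either region. The same held at 24 of the 34 regions called in all 4 libraries, so it is not particular to these. At 35.2 kb (chr4:155187045-155187718), the pileup was 104 and 25 against 336 and 208 and differed by 1.50 (standard error 0.22, adjusted p = 0.0184). Fold enrichment there was 13.4 and 7.51 against 18.5 and 14.1, a difference of 0.32 (adjusted p = 0.370).

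The local background, which divides the pileup in a fold enrichment, was higher along Ski in Cre+ as well. This measure was added after the values had been seen. At 57.8 kb it was 1.48 and 1.17 times the library median in control and 3.80 and 4.74 times in Cre+. At the promoter it was 3.49 and 2.62 against 3.11 and 2.54, so that the genotypes overlapped there and not in the intron. Of the 34 regions, 5 passed the same test on the local background as higher in Cre+, against 2.08% of all regions, and 0 as higher in control, against 2.41%. All 5 were Ski introns, with log2 fold changes of 1.68 (57.8 kb), 1.68 (43.6 kb), 1.27 (35.2 kb), 1.15 (21.5 kb) and 1.04 (5.0 kb), and limma adjusted p from 6.62e-09 to 3.42e-04. Neighbouring regions share tags in this background, so these 5 values are not independent of each other. On this measure limma used nearly the same variance for all regions, with or without control replicate 3. Its p-values therefore do not measure the spread at each of these regions. The promoter differed by −0.11 (limma adjusted p = 0.784). Without control replicate 3, 6 regions passed as higher in Cre+, all in Ski (against 1.81% of 33067 regions), and 1 as higher in control (against 2.0%), the Tgfb2 region at 28.1 kb (−1.01, adjusted p = 0.0087). The pileup at 57.8 and 43.6 kb did not pass in that fit (0.99, adjusted p = 0.0712, and 0.78, adjusted p = 0.168), while the one at 35.2 kb did (1.22, adjusted p = 0.0233).

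**Figure D4:**
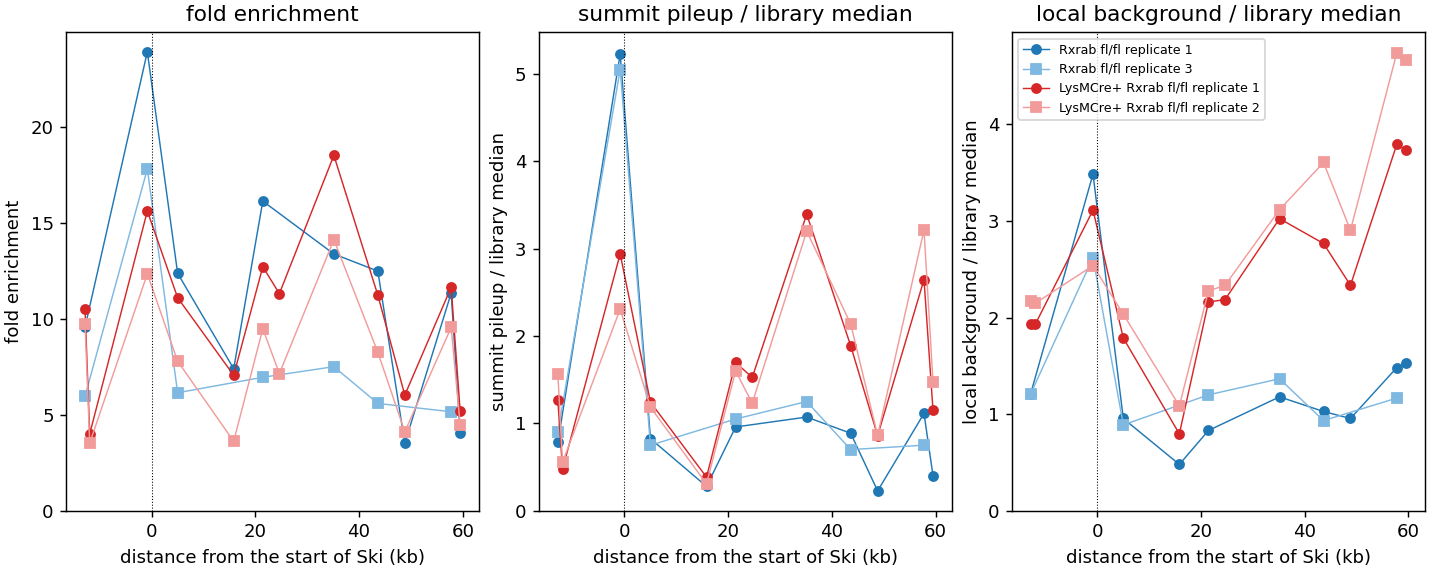
Fold enrichment (left), summit pileup (middle) and local background (right), the latter 2 divided by the library median, against distance from the Ski TSS in kb, 1 line per library. At the promoter both Cre+ libraries lie below both control libraries in the left and middle panels, and from 35.2 to 57.8 kb they lie above them in the middle and right panels.

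Skil, the paralogue of Ski, was lower at its promoter in Cre+ on the pileup. The Skil promoter (chr3:31094496-31095191) had a fold enrichment of 15.6 and 14.2 in control and of 11.9 and 10.3 in Cre+ (log2 fold change −0.79, standard error 0.26, limma adjusted p = 0.115). Its pileup was 257 and 82 against 130 and 66, or 2.65 and 4.10 times the library median against 1.31 and 1.02 times. The genotypes did not overlap, and the pileup differed by −1.52 (standard error 0.27, adjusted p = 0.0201). The local background at the Skil promoter was also lower, by −0.87 (adjusted p = 0.0035), which is not past a log2 fold change of 1. The strongest Skil region, 10.9 kb upstream (chr3:31083918-31084478), had a fold enrichment of 20.2 and 8.33 against 24.3 and 17.9 (0.32, standard error 0.22, adjusted p = 0.401), and its raw values overlapped while those relative to the library medians did not. The Ski and Skil regions that passed on the pileup, and the Ski promoter, are shown by the 101 bases around their summits (mm10, plus strand), with the GC-rich SMAD element GGCGCC in capitals where it occurs.
Ski promoter, chr4:155223319-155223419: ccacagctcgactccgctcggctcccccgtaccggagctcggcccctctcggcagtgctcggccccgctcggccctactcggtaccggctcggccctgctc
Ski at 35.2 kb, chr4:155187231-155187331: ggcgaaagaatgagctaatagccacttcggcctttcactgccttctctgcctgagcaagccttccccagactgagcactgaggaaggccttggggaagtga
Ski at 43.6 kb, chr4:155178406-155178506: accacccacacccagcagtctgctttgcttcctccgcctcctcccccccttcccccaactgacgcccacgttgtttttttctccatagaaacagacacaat
Ski at 57.8 kb, chr4:155164729-155164829: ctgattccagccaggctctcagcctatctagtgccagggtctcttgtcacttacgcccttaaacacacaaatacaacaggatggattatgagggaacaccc
Skil promoter, chr3:31094740-31094840: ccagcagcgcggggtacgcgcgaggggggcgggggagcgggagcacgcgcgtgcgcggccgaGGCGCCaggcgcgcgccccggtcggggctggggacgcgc

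**Figure D5:**
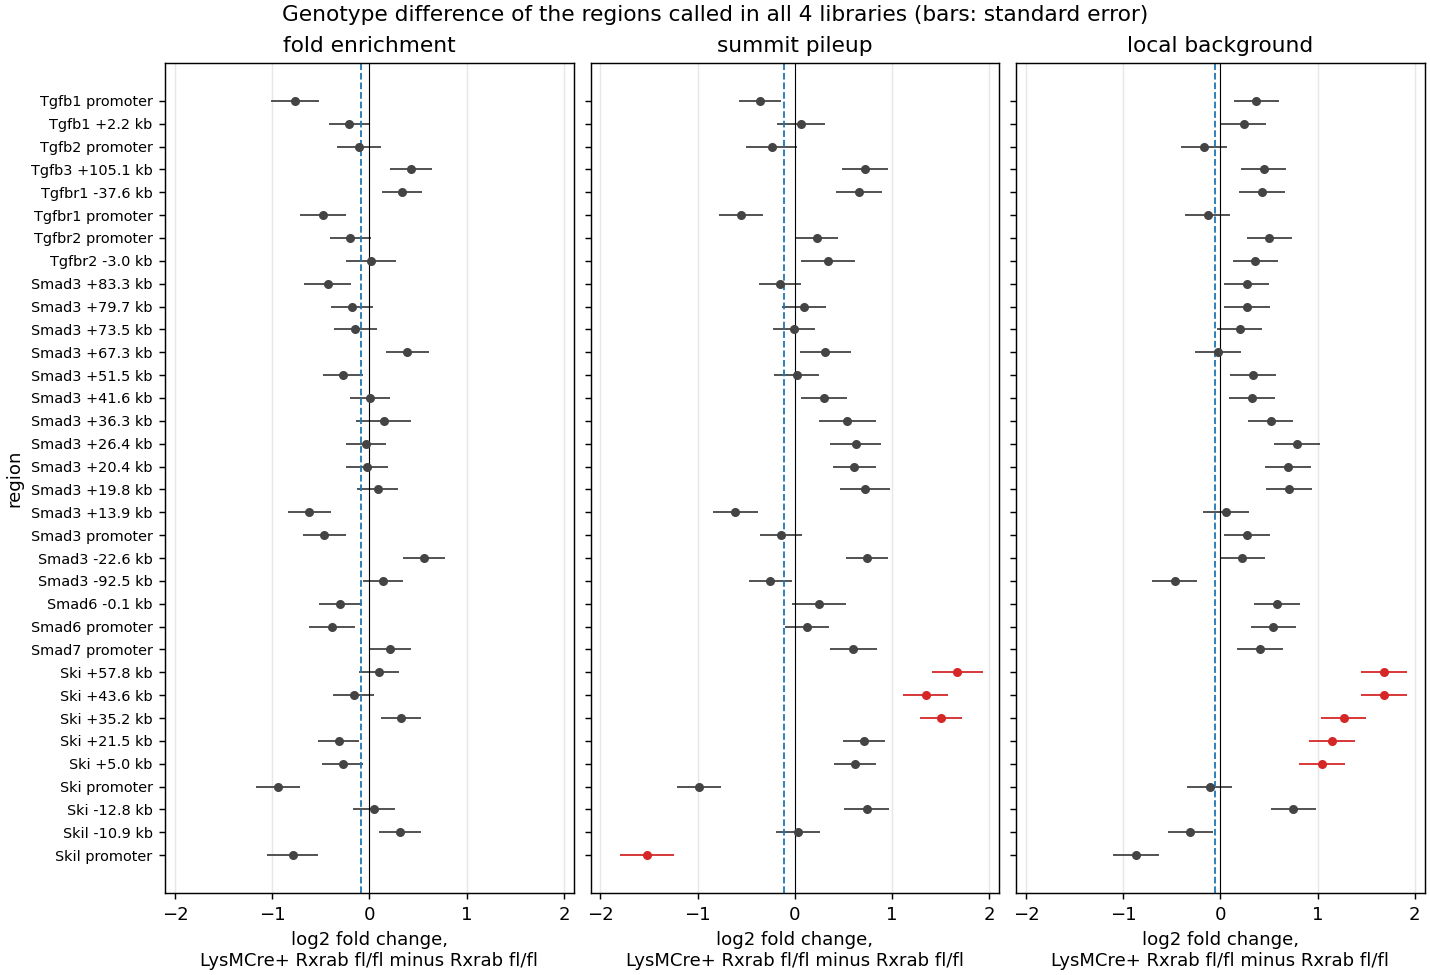
Log2 fold change, Cre+ minus control, of the 34 regions called in all 4 libraries (rows), on fold enrichment, summit pileup and local background. Bars are standard errors, the dashed line is the median of all regions tested, and red marks adjusted p under 0.05 with a log2 change past 1, which occurs for 0, 4 and 5 regions.

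Short motifs were counted on both strands in the 200 bp around the strongest summit of each region. The GATA motif, AGATAA or TGATAA, was found in 4 of the 103 regions (3.88%, against 10.5% of all regions): Tgfbr2 at 97.7 kb, Smad7 at 10.3 and 52.2 kb, and Ski at 48.8 kb. None of the 6 Tgfb2 regions held it in this window. The SMAD palindrome GTCTAGAC was found in 1 region (0.97%, against 0.20%) and the GC-rich element GGCGCC in 5 (4.85%, against 6.37%). The hexamer AGGTCA, bound by nuclear receptors, was found in 14 (13.6%, against 13.0%), among them the Ski region at 21.5 kb. DR1 and DR5, direct repeats bound by RXR dimers, were found in 0 of the 103, against 0.028 and 0.023% of all regions. With matches in only 20 and 16 of all 70744 regions, a count of 0 among 103 says little. The paper's own motif search, with HOMER, reported both kinds as enriched in control LPMs. PU.1 as GAGGAAGT was found in 10 (9.71%, against 9.28%), AP-1 as TGANTCA in 14 (13.6%, against 12.7%) and C/EBP as TTNNGCAA in 11 (10.7%, against 11.0%). The counts are descriptive, and a missing match says only that these letters are not in the window.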

How the data were processed

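ATAC-seq peaks of 4 libraries were analysed. The authors aligned paired-end reads to mm10 (GRCm38) with Bowtie2, removed duplicates, low-quality, mitochondrial and sex-chromosome reads, and called peaks per library with MACS2 2.1.1 (shift 100, extension 200 bp, q value 0.05). The deposited lists hold, for each peak, a fold enrichment (ratio of pileup to local background), a −log10 p-value, a −log10 q-value and a score that was not used. The authors' test on read counts was not repeated, since counts are not analysed here.

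Overlapping peaks (at least 1 bp) were merged and placed on RefSeq transcripts (43783 transcripts of 24963 genes). The log2 fold enrichment of regions called in every library, minus the library's median, was tested with limma 3.58.1 in R 4.3.3, with Benjamini-Hochberg adjustment over all regions. Tested on simulated data for this comparison of 15199 regions, it recovered 194 of 200 regions changed by 1.5 on the log2 scale, with 5 false calls among 14999. The simulated noise followed the variance that limma had fitted, independent between regions and alike in all libraries. The simulation therefore left out the differences between these libraries and does not give the power in the real data. Pileup and local background were solved from fold enrichment and the p-value with a pseudocount of 1 (98.0 to 99.997% of peaks). With 2 libraries per genotype, a two-sided exact permutation test gives no p below 0.333. Read depth per library is not in the lists, so calls and pileups reflect it. Regions named are, per gene, the promoter region, the strongest region, those past the threshold on fold enrichment or pileup, and the strongest called in 1 genotype only. Regions named beyond these were chosen after their values were seen. The genes and lists were chosen with earlier results of these data known. Sequences were read from the reference assembly GRCm38. Scripts used Python 3.11.15, pandas 2.3.3 and pysam 0.24.0. One marker gene of the B cell list, and the sum over that list, are not reported here.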

Additional observations from a re-analysis of the deposited data

How the results depend on the processing

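No paired analysis was possible because the genotypes share only replicate number 1. The count of TGF-β gene regions past the threshold, 0 on fold enrichment, was 4 on the summit pileup and 5 over regions called in at least 3 libraries. Under settings added after seeing the data, it was 2 over the 3 longer lists, 5 on the local background, and 8 and 7 for pileup and background over the 3 longer lists. Leaving out 1 library gave 0 to 3, with 3 (the Tgfb1, Ski and Skil promoters) without Rxrab fl/fl replicate 1. Of all regions, 13 passed (6 higher in LysMCre+ Rxrab fl/fl, 7 in Rxrab fl/fl). That became 0 without centring, 1136 on the pileup (365 and 771), 2843 over at least 3 libraries, 137 with a mean-variance trend, 41 at equal peak numbers, 1137 over the 3 longer lists, 680 on the background, 4366 and 1258 for pileup and background over the longer lists, and 13 to 784 with 1 library left out (784 without Rxrab fl/fl replicate 1). Quantile normalization split its calls 9 and 2.

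The median log2 fold change of the regions, −0.12, was 0.24 without centring, which moves the median of all regions to 0.28, and 0.0050 after quantile normalization. It was 0.27 on the pileup, 0.21 over at least 3 libraries, −0.19 with peaks cut to summits, −0.18 for gene bodies alone and −0.20 to −0.069 with 1 library left out. The 19 regions called in 1 genotype only became 9 for gene bodies alone, 7 at equal peak numbers and 21 to 50 with 1 library left out, 50 without Rxrab fl/fl replicate 1 and 31 without LysMCre+ Rxrab fl/fl replicate 2.

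Over 24 regions and 223 comparisons with another setting, 188 kept direction and side of the threshold, 16 came to pass it and 19 changed sign. Without centring, the sign changed at Tgfb1 2.2 kb (0.16), the Tgfb2 promoter (0.26; 0.25 after quantile normalization), the Tgfbr2 promoter (0.17), Smad3 73.5 kb (0.22) and Ski 43.6 kb (0.20). On the pileup it changed at Tgfb1 2.2 kb (0.065), the Tgfbr2 promoter (0.22), the Smad6 promoter (0.12) and Ski 43.6 kb (1.34, or 0.78 over the longer lists). Over the 3 longer lists it changed at the Smad7 promoter (−0.088), Ski 57.8 kb (−0.33) and Skil 10.9 kb upstream (−0.18, and −0.47 on the pileup), and over at least 3 libraries at Tgfb2 47.9 kb (0.19). Leaving out 1 library gave −0.30 to 0.088 at the Tgfb2 promoter and −0.36 to 0.070 at Smad3 73.5 kb. The causes were not tested.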

Other observations

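Other genes of the TGF-β and BMP pathway, 38 in all, from the activators of latent TGF-β to the ID proteins, had 288 regions, of which 48 were called in all 4 libraries (16.7%, against 21.5% of all regions) and 76 in LysMCre+ Rxrab fl/fl only (26.4%, against 22.8%). Of the 48, 1 passed the test on fold enrichment (2.08%, against 0.0855% of all regions): the promoter of Id3, a target gene of BMP and TGF-β signalling (chr4:136143481-136144046). Its fold enrichment was 19.2 and 15.7 in the controls, against 8.69 and 6.74 with LysMCre+, without overlap (log2 fold change −1.55, standard error 0.24, limma adjusted p = 0.0449). On the pileup, 3 regions passed as higher in Rxrab fl/fl (6.25%, against 5.08%), at the latent TGF-β binding protein Ltbp1, at Thbs1 (thrombospondin 1, an activator of latent TGF-β) and at Bmp2, and 0 as higher in LysMCre+ Rxrab fl/fl (against 2.41%). The list was drawn up with earlier results known.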
